A study of Macaca mulatta with 24 samples.

Results

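The N-myc downstream regulated genes form a family of 4, NDRG1 to NDRG4, and are described here across the endometrium of the rhesus monkey in the first days after ovulation. Members were all probes of the array that the scanner files name NDRG1, NDRG2, NDRG3 or NDRG4. Only 2 of 20217 probes carry such a name, 1 for NDRG1 and 1 for NDRG2. NDRG4 was found on 2 further probes through the gene ID in its file name (LOC712742), and NDRG3 on 1 probe whose description in the files reads N-myc downstream regulated gene 3 (file name LOC702452). That gave 5 probes for the 4 genes, of which 3, 1 each for NDRG1, NDRG2 and NDRG3, passed the filter that left 12780 probes for the comparisons. NDRG1 had been chosen for its rise to day 6 of conception cycles, while most genes inducible by hypoxia were lower there, and NDRG2 for being higher in conception than in non-mated cycles at day 2. Those differences are therefore given as descriptions, with no test.

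The data are 24 one-colour arrays of endometrial total RNA from female monkeys. In 12 samples the animal had been mated and conception was proven, and the other 12 came from monkeys of proven fertility that ovulated normally and were not mated. Each cycle type was sampled at 3 times after ovulation, day 2, day 4 and day 6, with 4 arrays in each of the 6 groups. The labels used here give no age, hormone treatment or animal number. For 8 samples without mating, the title puts the biopsy at day 2 but every other label puts it at day 4 or day 6, which was followed here. The sources do not tie the arrays to separate animals. A p-value therefore reflects how far the arrays of a group lie apart, and this distance may be technical.

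NDRG proteins share an alpha/beta hydrolase fold but are not known to act as hydrolases. The first member was found as a gene whose RNA falls when the transcription factor N-myc is active, and MYC and MYCN are known repressors of NDRG1 and NDRG2. NDRG1 is a cytoplasmic protein whose RNA is raised by hypoxia, by iron chelation and by many other stresses, and it is a widely used marker gene of the hypoxia response. NDRG2 is abundant in brain, muscle and many epithelia, NDRG3 binds lactate and is stabilised in hypoxia, and NDRG4 is best known from brain and heart.

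Each gene was read by a probe of 60 bases, and the bases that it reads limit what a value can mean. The NDRG1 probe was placed by the files at chr8:135805096-135805155 on the minus strand, in the coordinates of the rhesus build rheMac2. Its bases 3 to 13 are the purine run AAGGAAGGAAG. It is shown because it is the longest run shared with the CHRND probe, whose level was most like that of NDRG1. Only 3 of the 20217 probes hold it (0.0148%), and 1 probe holds the reverse complement (0.00495%). The NDRG2 probe lies at chr7:83728608-83728667, the NDRG3 probe at chr10:27828061-27828120 and both NDRG4 probes, which are identical, at chr20:56868730-56868789. No gene models of this build were used, so exon and UTR are not given for these places. Bases 31 to 60 of the NDRG2, NDRG3 and NDRG4 probes follow, with the polyadenylation hexamers AATAAA and ATTAAA in capitals. They were searched on the probe strand of all probes, AATAAA was in 12.8% and ATTAAA in 4.55% of them, and a match is a description of the letters only. The reverse complement of AATAAA was in 4.67%.
NDRG2 probe: ataacAATAAActgtagatgaatttgagta
NDRG3 probe: ctgccagagtatgactttttacagattatt
NDRG4 probes: agaggagagtgtgacaaacATTAAAagcct

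The other 2 probes that hold the run of the NDRG1 probe read genes on other chromosomes. One is assigned to CHRND, the delta subunit of the muscle acetylcholine receptor, at chr12:96426187-96426246. The other is assigned to the transcript ENSMMUT00000041788 at chr16:42435103-42435162, which the files describe as Meckel syndrome type 1, a gene of the primary cilium. They are shown with those 11 bases in capitals, because their levels followed that of NDRG1 across arrays, as given further on. Probes for GAS2L2, a protein that links actin filaments and microtubules, at chr16:31014338-31014397 and for LOC707282, described as similar to an olfactory receptor, at chr14:16975266-16975325 share 9 bases with the NDRG1 probe, also in capitals.
CHRND: gaagagtccAAGGAAGGAAGggagcagcca
ENSMMUT00000041788: agaccaaagAAGGAAGGAAGgaaggtggac
GAS2L2: aggaggaggAGGAAGGAAaggagaaagagc
LOC707282: aacaaggaagtGAAGGAAGCtgtgaaaagg

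Levels are log2 of the scanner's processed signal minus the 75th percentile of that array, so that a level of 0 equals that percentile. A probe is called well above background by the scanner software, array by array. The share of probes well above background was 53.3% to 71.5% on 21 arrays and lower on 3 weak arrays, 4.33% on replicate 3 of non-mated day 2, 37.9% on replicate 1 and 21.8% on replicate 2 of non-mated day 4. On a weak array many dim probes share one lowest value, which stands high on this scale, so results that use these arrays are given with and without them. Epithelial markers (6 of 9 had a probe that passed) and stromal markers (8 of 10) were present in every group. The highest correlation among the 276 pairs of arrays was 0.975, and no pair was identical.

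NDRG1 climbed in conception cycles from a level near background on day 2 to a level well above background on every array of day 6. The 4 conception arrays of day 2 stood at -5.17, -3.79, -4.56 and -5.12, and 2 of them were well above background. Those of day 4 stood at -3.49, -3.32, -4.89 and -1.53, with 3 well above background. Those of day 6 stood at -2.14, -1.25, -2.04 and -1.27, with all 4 well above background. Every array of day 6 was higher than every array of day 2, and replicate 4 of day 4 already lay within the range of day 6. The group means ± SD (n = 4 each) were -4.66 ± 0.65, -3.31 ± 1.38 and -1.68 ± 0.48.

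The limma difference of day 6 from day 2 was 2.99 ± 0.83 (SE) for NDRG1 on the log2 scale, and its steps were 1.35 ± 0.83 to day 4 and 1.63 ± 0.83 from there. Groups did not overlap, in the direction of higher day 6, for 5.23% of the 12780 probes in the same comparison. NDRG1 was chosen for this difference, so nothing is read from its place among them. The difference was 3.19 among the arrays of the first scan day and 2.78 among those of the second. It was 2.84 when dim levels were lifted to the lowest value that counted as above background on their array. It was 0.65 when the background was corrected with normexp and an offset of 50, a setting that draws dim signals together, and the order of the 2 groups was kept. The 2 spots of the NDRG1 probe on an array differed by a median of 0.22 on the log2 scale over the 21 stronger arrays, with a highest difference of 1.22. Replicates 1, 2 and 4 of conception day 2 and replicate 4 of conception day 6 were scanned in a single range. The other arrays of these groups were scanned in an extended range, so scan range and day are partly confounded here.

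**Figure D1:**
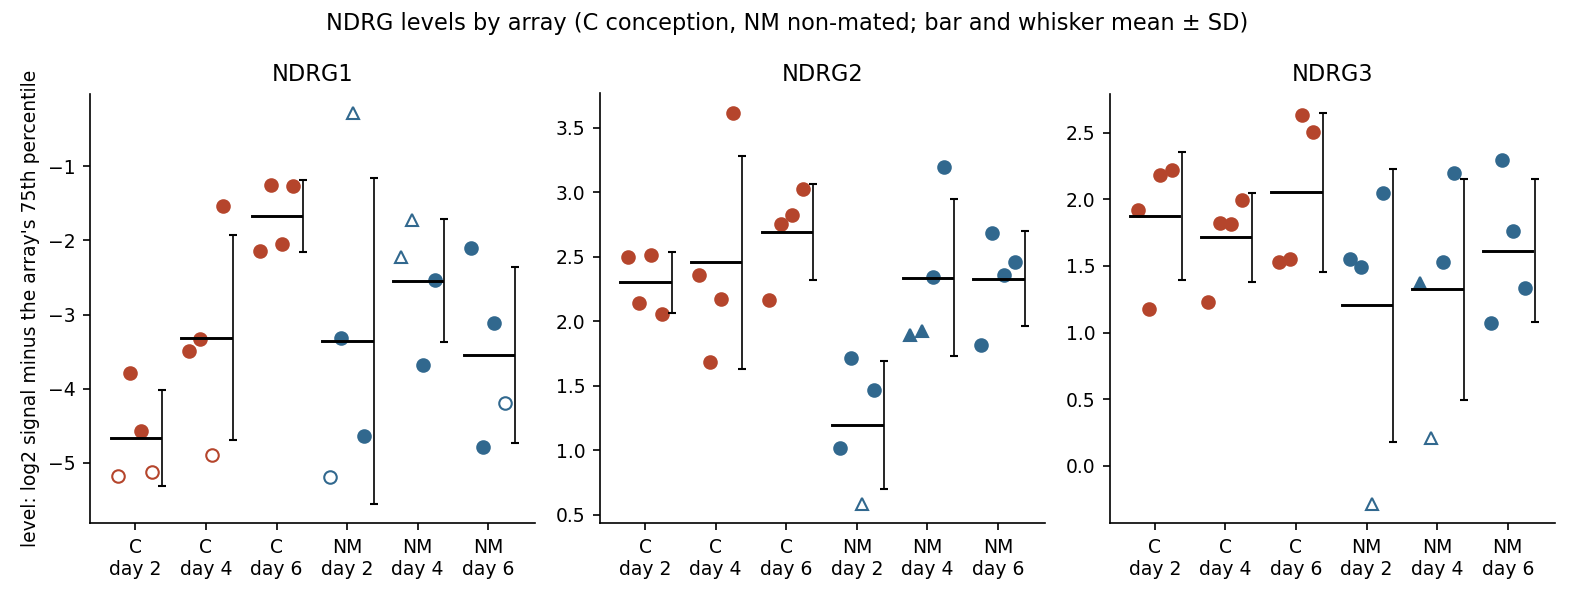
Level of NDRG1, NDRG2 and NDRG3 on each array (vertical axis, log2 signal minus the 75th percentile of the array) in conception (C) and non-mated (NM) cycles by day, with the mean as a bar and the SD as a whisker (4 arrays each). Filled symbols are well above background, open symbols are not, and triangles are the 3 weak arrays. NDRG1 rises from a mean of -4.66 to -1.68 across the conception days, and NDRG2 is lowest in non-mated day 2 at 1.19.

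In non-mated cycles NDRG1 showed no such separation of day 6 from day 2. The non-mated arrays of day 2 stood at -5.19, -3.32, -0.28 and -4.63, where -0.28 is the lowest value of the weak array, shared by 13322 of its probes. The arrays of day 4 stood at -2.22, -1.73, -3.69 and -2.54, and the first 2 are the weak arrays, neither well above background. The arrays of day 6 stood at -2.10, -4.79, -3.12 and -4.19, with 3 well above background. All 3 days overlapped, and with the weak arrays counted the range within each day exceeded the distance between the means. Without the weak arrays the means were -4.38 on day 2 (3 arrays), -3.11 on day 4 (2 arrays) and -3.55 on day 6 (4 arrays). Day 6 differed from day 2 by -0.19 ± 0.83 (SE, 95% interval -1.91 to 1.53), with an adjusted p of 0.934 in limma. This difference was -1.49 among arrays of the first scan day, which hold the weak array of day 2, and 1.11 among those of the second. Of the 12780 probes, 0% passed an adjusted p of 0.05 in the comparison of non-mated day 6 with day 2 in limma, while 421 had an unadjusted p under 0.05 (3.29%). The NDRG1 difference without the weak arrays was 0.83 ± 0.69 with an adjusted p of 1, so its direction depends on them, and the interval over all arrays does not exclude a change of more than 1 log2 unit either way. Day 6 differed from day 4 by -1.003 ± 0.83 (adjusted p = 0.782, limma), and by -0.43 without the weak arrays. Day 4 differed from day 2 by 0.81 ± 0.83 (adjusted p = 0.997, limma), and by 1.27 ± 0.83 without the weak arrays. The same step in conception was 1.35 ± 0.83.

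Set against non-mated cycles on the same day, NDRG1 was 1.87 ± 0.83 (SE) higher in conception at day 6, with an SE of 0.64 without the weak arrays and a difference of 0.84 with normexp. Replicate 1 of the non-mated arrays, at -2.10, lay within the conception range, so the groups overlapped. The day 6 difference was 2.30 among arrays of the first scan day and 1.44 among those of the second. On slide 1, the only slide with both cycle types at day 6, it was 0.40 for 2 conception arrays against 1 non-mated array. The difference was -1.31 ± 0.83 at day 2 and -0.77 ± 0.83 at day 4, and without the weak arrays these were -0.28 ± 0.69 and -0.20 ± 0.79. All these differences of NDRG1 are descriptions, since its conception arrays chose it.

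The features whose level was most like that of NDRG1 were chosen by Pearson's correlation over the 21 stronger arrays among 7869 named genes. They were CHRND (r = 0.955), GAS2L2 (0.907), the dynactin subunit DCTN2 (0.886), OSGIN2 (0.785) and the kinase TTBK1 (0.766). All points share their arrays and the same scaling, and no p is given. When probes without a current symbol were counted too, 4 of the other 12779 probes had r above 0.9, and these were CHRND, LOC707282 (0.948), ENSMMUT00000041788 (0.927) and GAS2L2. All 4 share at least 9 bases in a row with the NDRG1 probe, and the 2 other holders of AAGGAAGGAAG are among them. That run was taken from the CHRND probe because of its r, so the place of CHRND among them was fixed in advance. Runs of 9 or more bases in common with the NDRG1 probe occurred in 156 probes, 1.22% of the 12779.

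The probes of CHRND and of ENSMMUT00000041788 also read higher on day 6 than on day 2 of conception cycles. CHRND stood at -6.19, -4.45, -5.83 and -5.79 on the conception arrays of day 2 and at -3.01, -1.50, -1.71 and -0.91 on those of day 6. Every day 6 array was above every day 2 array, and only 1 of the 4 day 2 arrays was well above background. ENSMMUT00000041788 was well above background on 23 of 24 arrays, and stood at 0.059, 0.18, -0.56 and -0.29 on day 2 and at 1.00, 2.14, 2.64 and 2.71 on day 6. Day 6 exceeded day 2 by 3.78 for CHRND, 2.27 for ENSMMUT00000041788, 3.42 for LOC707282 and 2.23 for GAS2L2 in group means, against 2.99 for NDRG1. On day 2 the probe was well above background on 1 of 4 conception arrays for CHRND, 4 for ENSMMUT00000041788, 2 for LOC707282, 2 for GAS2L2 and 2 for NDRG1, so most of these differences start from a level near background. With dim levels lifted to the detection limit of their array they were 3.34, 2.27, 3.14, 1.93 and 2.84 in that order.

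Conception day 4 replicate 4, the highest NDRG1 array of its group, was the highest of its group for CHRND (-1.70 against -4.96 to -2.88) and for ENSMMUT00000041788 (2.25 against -0.27 to 0.40). In non-mated cycles, without the weak arrays, day 6 exceeded day 2 by 0.83 for NDRG1, 1.41 for CHRND and 0.83 for ENSMMUT00000041788. At day 6, conception exceeded non-mated cycles by 1.87, 2.19 and 1.50 in the same order.

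The 10 probes with 11 or more bases in common with the NDRG1 probe had a median r of 0.30 with it and a median conception day 6 minus day 2 of 0.50. They include CHRND and ENSMMUT00000041788, at 3.78 and 2.27, so these medians are not independent of the choice of the run. No day difference was taken for the rest alone. The 10635 probes with 6 or fewer had medians of -0.0026 and -0.022. For 7, 8, 9 and 10 bases the median r was -0.016, -0.028, 0.065 and 0.0056. The median day differences there were -0.0485, -0.057, -0.0015 and -0.064. Of the 10 probes, 8 have their bases in common with it at other runs, and their r with NDRG1 ran from -0.63 to 0.48 with a median of 0.29. Over the 156 probes with 9 or more shared bases the median r was 0.071, and 10.9% had r above 0.5, beside 4.73% of all 12779. The relation between shared bases and level was noticed after the values had been seen, and AAGGAAGGAAG was taken from the probe of the gene most like NDRG1. Whether the NDRG1 probe read NDRG1 RNA alone was not tested, since the gene has 1 probe here, and RNA of NDRG1 and of other transcripts binding to that probe cannot be told apart.

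**Figure D2:**
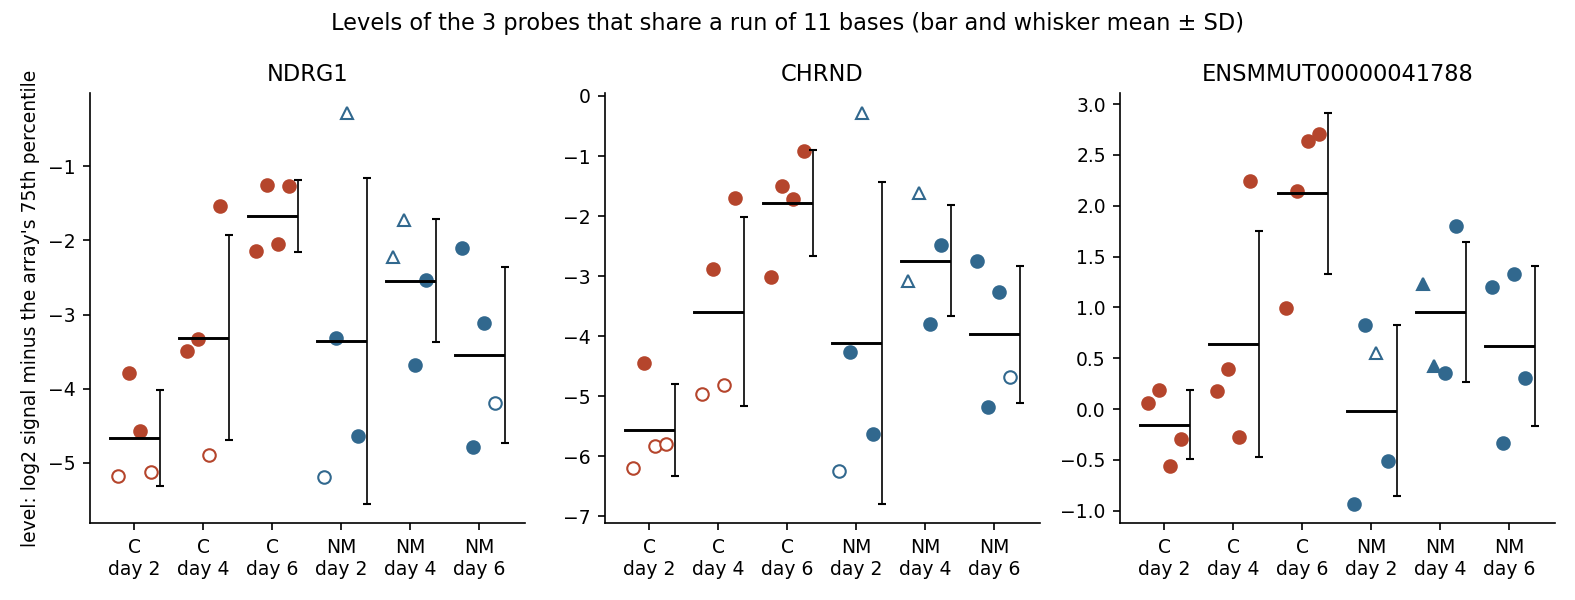
Level of the 3 probes that hold the same run of 11 bases, on each array (vertical axis, log2 signal minus the 75th percentile of the array; each panel has its own scale), with mean bars and SD whiskers. Symbols are as for the NDRG levels, filled where well above background and triangles for weak arrays. For NDRG1, CHRND and ENSMMUT00000041788 the mean over all arrays is lowest in conception day 2 and highest in conception day 6. For ENSMMUT00000041788 the lowest place depends on the weak array of non-mated day 2. That array stood at 0.55, and the others of its group at -0.93, 0.83 and -0.51, beside a conception day 2 mean of -0.15.

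NDRG2 was a brightly measured gene, well above background on 23 of 24 arrays. At day 2 it stood at 2.49, 2.14, 2.51 and 2.05 on the conception arrays and at 1.01, 1.72, 0.59 and 1.46 on the non-mated arrays. The third non-mated array is the weak one and was not well above background. Every conception array was above every non-mated array, also without the weak array. The difference was 1.11 ± 0.40 (SE), and 0.90 ± 0.37 without it. Groups did not overlap in that direction for 0.556% of the 12780 probes, and NDRG2 was chosen for this difference, so nothing is read from it. It was 1.26 among arrays of the first scan day and 0.95 among those of the second, and 0.60 on slide 4 for 2 conception arrays against 1 non-mated array. Conception replicates 1, 2 and 4 and non-mated replicate 2 of day 2 were scanned in a single range and the others in an extended one. Scan range was thus not balanced between the cycle types at day 2.

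At the later days the NDRG2 arrays of both cycle types overlapped. At day 4 conception arrays stood at 2.36, 1.68, 2.17 and 3.61 and non-mated arrays at 1.89, 1.93, 2.34 and 3.19. The first 2 non-mated values are from weak arrays. The difference was 0.12 ± 0.40 (95% interval -0.70 to 0.94), with an adjusted p of 0.916 in limma, and -0.31 without the weak arrays. In limma 0% of the 12780 probes passed the adjusted threshold at day 4, although 6.18% had an unadjusted p under 0.05.

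At day 6 NDRG2 stood at 2.17, 2.75, 2.82 and 3.03 in conception and at 1.82, 2.68, 2.36 and 2.46 in non-mated cycles. The 2 groups overlapped over most of their range. The difference was 0.36 ± 0.40 (95% interval -0.46 to 1.18), with an adjusted p of 1.00 in limma. Leaving out 1 array gave 0.19 to 0.54. In this comparison 0.00782% of the probes passed as lower and 0% as higher, and 2.38% had an unadjusted p under 0.05. The day 6 and day 4 differences of NDRG2 differed by 0.24 ± 0.56 (adjusted p = 0.95, limma), and by 0.67 ± 0.54 without the weak arrays.

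The low point of NDRG2 was thus the non-mated group of day 2. Its means ± SD (n = 4 each) were 1.19 ± 0.50, 2.34 ± 0.61 and 2.33 ± 0.37 on days 2, 4 and 6 of non-mated cycles, and 2.30 ± 0.24, 2.46 ± 0.82 and 2.69 ± 0.37 in conception. In non-mated cycles day 6 was higher than day 2 by 1.13 ± 0.40 (0.93 without the weak array), with no overlap, a comparison in which 1.04% of all probes did not overlap in this direction. These arrays of day 2 are those that chose NDRG2, so this is not independent of the choice. Day 6 and day 4 of non-mated cycles, which the choice did not use, differed by -0.0084 ± 0.40 (95% interval -0.83 to 0.81, adjusted p = 0.994, limma, with 0% of all probes called). Without the weak arrays of day 4 this difference was -0.44 ± 0.42, so its size depends on them. In conception day 6 was 0.39 ± 0.40 above day 2, with overlap. Ordered by mean, the 5 groups from 2.30 to 2.69 followed each other within their spread.

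The genes most like NDRG2 over the 21 stronger arrays were the kinase FAM20B (r = 0.793), PTS (0.771), an enzyme of tetrahydrobiopterin synthesis, CCDC77 (0.768), the histone chaperone DAXX (0.764) and MEPCE (0.763), which caps a small nuclear RNA. These correlations rest on the same arrays and scaling. Their distance from one another is small, so their order carries little. Across the same arrays NDRG2 correlated with NDRG1 at r = 0.52 and with NDRG3 at r = 0.43, and NDRG1 with NDRG3 at r = 0.021.

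NDRG3 was well above background on 22 of 24 arrays, and on all 21 stronger ones. In conception it stood at 1.92, 1.18, 2.18 and 2.22 on day 2, at 1.23, 1.82, 1.81 and 1.99 on day 4 and at 1.53, 1.55, 2.63 and 2.50 on day 6. In non-mated cycles it stood at 1.55, 1.49, -0.28 and 2.05 on day 2, at 1.37, 0.21, 1.53 and 2.20 on day 4 and at 1.07, 2.30, 1.76 and 1.33 on day 6. All 6 groups overlapped, and the values of -0.28 and 0.21 are from weak arrays on which it was not well above background. Conception exceeded non-mated cycles by 0.39 ± 0.48 at day 4 (95% interval -0.61 to 1.39, adjusted p = 0.768) and by 0.44 ± 0.48 at day 6 (-0.56 to 1.43, adjusted p = 1.00) in limma. In non-mated cycles day 6 exceeded day 2 by 0.41 ± 0.48 (-0.58 to 1.41, adjusted p = 0.772, limma). Leaving out 1 array gave 0.016 to 0.68 at day 4 and 0.24 to 0.66 at day 6. Without the weak arrays the day 4 difference was -0.15 and the non-mated one -0.084, so neither direction is settled. In conception against non-mated cycles at day 4 and day 6 (NDRG2, NDRG3) and in non-mated day 6 against day 2 (NDRG1, NDRG3), 0 of the 6 tests had an unadjusted p under 0.05, beside 6.18%, 2.38% and 3.29% of all probes, so 0 of 6 is near the background. NDRG3 had 1 probe, named only through its description.

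Neither probe of NDRG4 passed the filter. One was well above background on 1 array and the other on 2 of the 24. The first had group means from -6.96 to -5.76 in conception, and the second from -6.90 to -4.94. As the probes are at or near the lowest value of most arrays, no fold change is given.

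**Figure D3:**
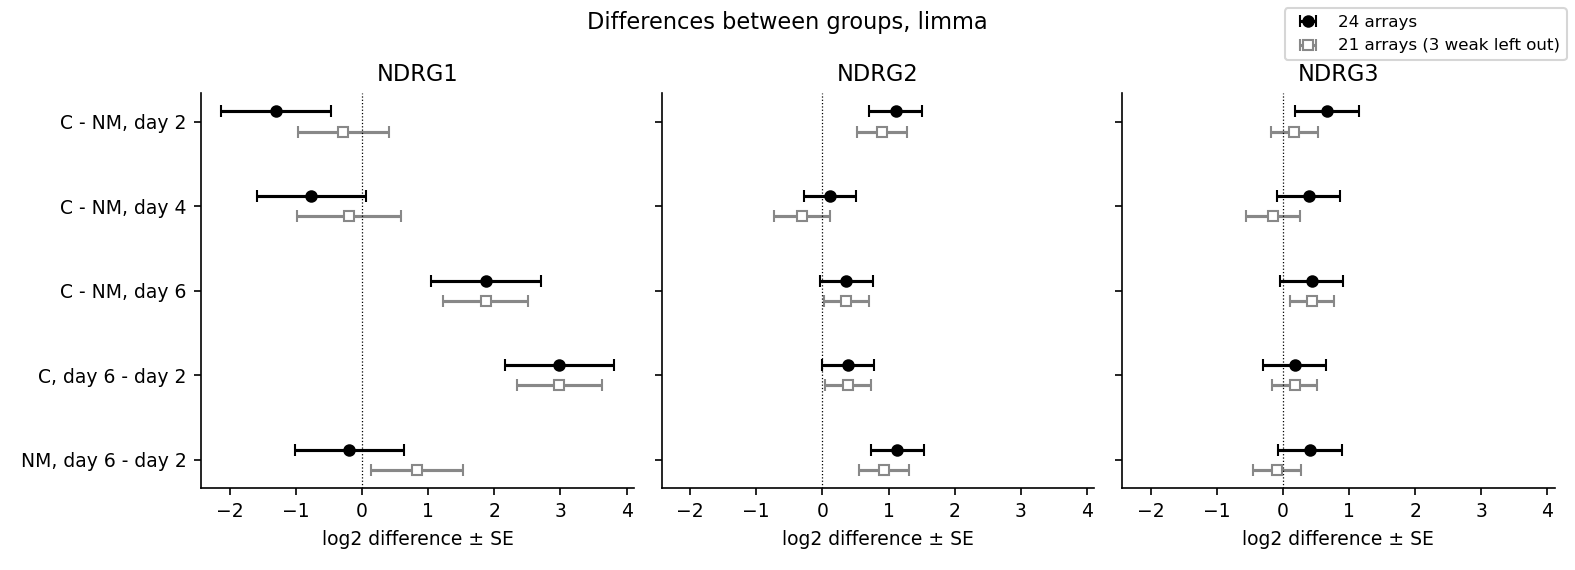
Log2 difference ± SE from limma (horizontal axis) for NDRG1, NDRG2 and NDRG3 in 5 comparisons (vertical axis; C conception, NM non-mated), with all 24 arrays (filled circles) and with the 21 stronger arrays (open squares). NDRG1 stands at 2.99 for conception day 6 against day 2, and its non-mated difference changes sign from -0.19 to 0.83 without the weak arrays.

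Most other genes of the hypoxia response had differences below 0 at day 6 of conception. Of a list of 41 genes that are inducible by hypoxia or belong to glycolysis, 28 had a probe that passed the filter. From conception day 2 to day 6 their differences were below 0 for 24 of 28, with a median of -0.43 beside -0.027 over all probes. The trend of these genes in conception was part of the choice of NDRG1, so their values are a description with no test. PFKFB3, which drives glycolysis, stood at -2.16 ± 0.91 (SE), DDIT4, an inhibitor of mTORC1 signalling, at -1.50 ± 0.81 and the glucose transporter SLC2A1 at -0.83 ± 0.48. VEGFA, the vascular growth factor, stood at -0.096 ± 0.40, the vasodilator ADM at -0.56 ± 0.53 and CA9, a carbonic anhydrase of the cell surface, at -0.81 ± 0.61. Hexokinase HK2, at the entry to glycolysis, stood at -0.99 ± 0.76 and lactate dehydrogenase LDHA, at its end, at -0.77 ± 0.52. Apart from VEGFA, each of these genes lay more than 1 SE below 0. SLC2A3, another glucose transporter, at -1.20 ± 0.65, was the only list gene whose day 6 arrays lay wholly below those of day 2, as 2.48% of all probes did.

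The same list set conception against non-mated cycles at day 6 gave 23 of 28 differences below 0 with a median of -0.33, beside -0.0024 over all probes. In non-mated cycles 15 of 28 lay above 0 and 13 below it from day 2 to day 6, with a median of 0.068 beside -0.20 over all probes (0.048 beside 0.0089 without the weak arrays). In non-mated cycles none was called in limma, and 1 of the 28, CA9, had an unadjusted p under 0.05, beside 3.29% of all probes. The conception day 6 arrays are shared by the first 2 comparisons. NDRG1, at 2.99 and 1.87, lay above each of the 28 genes in the first of them, a contrast for which it had been chosen.

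**Figure D4:**
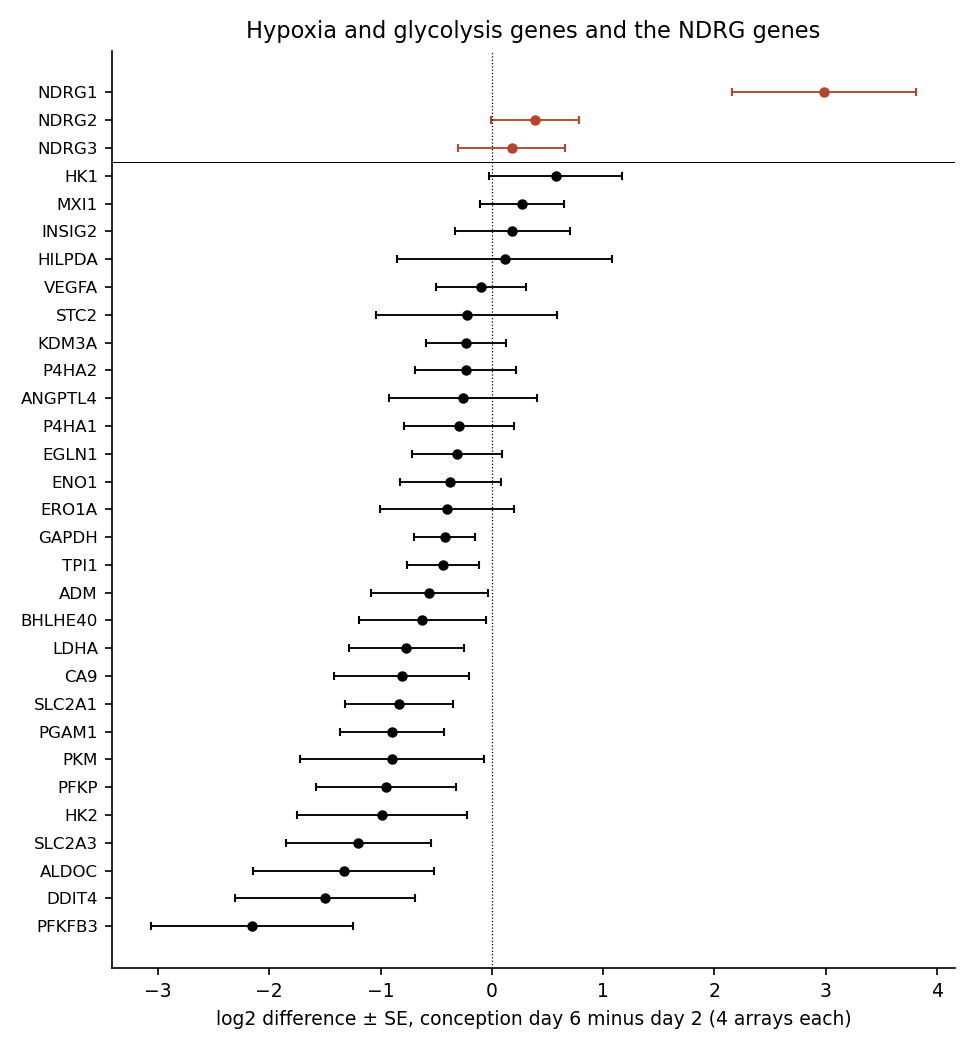
Log2 difference ± SE from limma of conception day 6 minus day 2 (horizontal axis) for the 28 hypoxia and glycolysis genes that passed the filter and, above the line, for NDRG1, NDRG2 and NDRG3 (rows; 4 arrays on each day). Of the 28 genes 24 lie below 0, from PFKFB3 at -2.16 upward, and NDRG1 lies at 2.99.

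Among 23 known regulators of NDRG genes, 16 had a probe that passed the filter and none was called in limma from conception day 2 to day 6 or in conception against non-mated cycles at day 6. At an unadjusted p under 0.05 there were 0 and 1 (MYCN) of 16, beside 4.2% and 2.38% of all probes. In the first of these comparisons 0.0156% of all probes were called lower and 0% higher, 2 probes in all, which became 213 without the weak arrays, again with no gene of this list. From conception day 2 to day 6, 6 were above 0 and 10 below, with a median of -0.18 beside -0.027 over all probes. MYC, a repressor of NDRG1 and NDRG2, stood at -1.33 ± 0.65 and MYCN at 2.92 ± 1.46, with overlapping arrays for both. HIF1A, the hypoxia-inducible factor subunit, stood at -0.66 ± 0.63 and EPAS1, its paralogue, at -0.22 ± 0.38. SGK1, the kinase that phosphorylates NDRG1, stood at -0.30 ± 0.53 and the glucocorticoid receptor NR3C1 at 0.025 ± 0.45.

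Iron handling was listed because iron chelation raises NDRG1. Of 9 such genes 7 passed the filter, and 6 of them were above 0 from conception day 2 to day 6, with a median of 0.33 beside -0.027 over all probes and none called in limma. HMOX1 alone, 1 of 7, had an unadjusted p under 0.05, beside 4.2% of all probes. The haem-degrading enzyme HMOX1 stood at 1.08 ± 0.47 and the transferrin receptor TFRC at -0.034 ± 0.63. In non-mated cycles HMOX1 stood at 0.67 ± 0.47 from day 2 to day 6, and at 1.04 without the weak array. Of the 7 genes, 5 were above 0 in that comparison, with a median of 0.64 beside -0.20 over all probes. Without the weak array the median was -0.031 beside 0.0089.

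Markers of the cell types that an endometrial sample can hold are given beside these levels. The T and natural killer cell markers with a probe that passed (4 of 6) summed to 13.9 to 16.2 on the conception arrays of day 6 and to 4.93 to 12.5 on those of day 2, on a linear scale where 1 is the 75th percentile signal of the array. In non-mated cycles they summed to 6.66 to 22.1 on day 6 and to 4.79 to 21.7 on day 2. For this sum all conception arrays of day 6 lay above those of day 2, and the non-mated days overlapped. The non-mated day 2 sums, with a median of 5.83, include the weak array and were not taken without it. The median difference of the 4 markers from non-mated day 2 to day 6 was -0.52 beside -0.20 over all probes. Without the weak array it was 0.44 beside 0.0089, so its direction depends on that array. In conception it was 1.15 beside -0.027. Taken singly, 1 of the 4 markers (NKG7) did not overlap in conception, with day 6 higher, as 5.23% of all probes did not. In non-mated cycles 1 of the 4 (GZMB) did not overlap in this direction, beside 1.04% of all probes. Stromal markers spanned 91.7 to 341 on conception day 6 and 136 to 197 on day 2. Epithelial markers (6 of 9) spanned 35.2 to 71.5 and 49.6 to 85.0. The sums of both lists overlapped between these days. Markers of nerve and glia (5 of 9), where NDRG genes are abundant, summed to 1.08 to 1.41 on conception day 6 and to 1.11 to 1.59 on day 2. Smooth muscle markers reached 336 on 1 conception array of day 2 and 44.3 at most on day 6. The sums of ciliated cell (3 of 6), endothelial (4 of 6), macrophage (4 of 6) and red blood cell (1 of 4) markers also overlapped between these days. Of the ciliated cell markers, CFAP100 was called lower on conception day 6 than day 2 (-3.34 ± 0.56, adjusted p = 0.034, limma), as 0.0156% of all probes were. FOXJ1 stood at 1.74 ± 1.15 and CAPS at -0.083 ± 0.50. Single markers of these other lists did not overlap between the days either. The epithelial marker KRT19 (-1.49 ± 0.70) and CFAP100 lay wholly lower on conception day 6, as 2.48% of all probes did. The endothelial marker TEK (0.64 ± 0.78) and FOXJ1 lay wholly higher, as 5.23% of all probes did. The part of the listed cell types in the NDRG levels was not tested. In bulk tissue, fewer cells of a type and less RNA per cell cannot be told apart.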

How the data were processed

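The authors deposited 1 scanner table per array, which holds the processed spot intensity of Agilent Feature Extraction (version 9.5.3.1 per the file headers, 10.7.3.1 per the submitters' processing notes), and a series table of log2 values, normalized by the authors, which served as an alternative. Per the labels, amplified total RNA was labelled with Cy3. The number of arrays limits the precision. Spots flagged as outliers and control spots were left out, the 2 spots of a probe averaged and the 75th percentile of log2 signal subtracted per array. A probe was kept if 3 or more of the 4 arrays in any group read it well above background. The kept probes were fitted with limma 3.58.1 (R 4.3.3, lmFit and eBayes) as 6 group means over 24 arrays (18 residual degrees of freedom), with Benjamini-Hochberg adjustment over 12780 probes, a threshold of 0.05 and two-sided tests. The fit was tested on simulated data. Names came from the files, from gene IDs and accessions matched to gene tables (3619 and 275 probes), or from descriptions; 7989 probes stayed unnamed. The genes named were all NDRG probes, the 5 genes most like NDRG1 and NDRG2, and set members of the lists (of these, EGLN3, BNIP3, PGK1, ANKRD37, PGR and ESR1 had no probe named here that passed); other genes named were chosen after their values were seen. Members and lists were chosen with earlier results of these data known. Alternatives were other scalings, filters, blocks (slide, scan, replicate number) and leaving out arrays. No series table column was left unmapped.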

Additional observations from a re-analysis of the deposited data

Results flagged for a closer look

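Of 30 sets of 4 arrays (5 NDRG probes in 6 groups), 2 held an array that lay far from the others by Dixon's criterion, and chance flags about 1 in 20 such groups. The first NDRG4 probe stood at -7.13 on replicate 3 of non-mated day 6, where the other 3 arrays lay between -6.11 and -5.90. The second NDRG4 probe stood at -0.28 on replicate 3 of non-mated day 2, a weak array, where the others lay between -6.60 and -6.36. Neither value was well above background.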

How the results depend on the processing

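The counts of NDRG probes past the threshold (conception against non-mated at day 4 and at day 6, non-mated day 6 against day 2) were 0 in the fit described and in all 38 alternatives, 24 of which left out 1 array each. With the replicate number as a block (replicate block) they were also 0. The numbers did not pair the samples, since correlations of same-numbered arrays ran from -0.31 to 0.46 and not every array matched its own number best. NDRG1, dim on 8 arrays, depended most on the processing. Its conception difference at day 2 was 0.37 with normexp and -0.012 with quantile normalization, at day 4 it was 0.19 with quantile normalization, and its conception day 6 against day 2 was 0.65 with normexp. Its non-mated difference of day 6 from day 2 was 0.19 with normexp, 1.00 with quantile normalization and 0.83 without weak arrays, and -0.80 to 0.83 on leaving out 1 array. The NDRG2 day 4 difference was -0.31 without weak arrays and -0.032 with scan range as a block, and -0.27 to 0.40 on leaving out 1 array. For NDRG3, the day 4 difference was -0.15 and the non-mated one -0.084 without weak arrays, with -0.084 to 0.69 for the latter on leaving out 1 array, conception day 6 against day 2 ran from -0.054 to 0.35 on leaving out 1 array, and the day 2 difference was 1.81 with quantile normalization. NDRG1 in conception day 6 against day 2 ran from 2.82 to 3.28 and the NDRG2 day 2 difference from 0.90 to 1.28 on leaving out 1 array. The cause of these shifts was not tested. Lifting dim levels to the detection limit of their array was chosen after seeing the data.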
